A study of Mus musculus with 3 samples.

Results

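The 6 S100 genes described here are S100a4, S100a6, S100a8, S100a9, S100a10 and S100a11, taken by name from the 32285 features of a single-cell RNA-seq series of mouse peripheral blood (PB). S100 proteins are small proteins with EF-hand motifs, most of them calcium-binding, that mostly work as dimers. S100a8 and S100a9 pair as calprotectin, which fills the cytosol of neutrophils, binds zinc and manganese, and acts as an alarm signal through Tlr4 and Ager once released. S100a10 forms a complex with annexin A2 (Anxa2) that brings plasminogen to the cell surface. S100a4 binds non-muscle myosin and is found in motile and memory cells, and S100a6 and S100a11 bind other annexins.

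The blood came from WT Balb/C mice in 3 states: naive, and collected at day 11 (D11) or day 14 (D14) after transplantation of BBC2 cells. BBC2 is a mouse line of stem cell leukemia and lymphoma syndrome (SCLL), a leukemia driven by an FGFR1 fusion kinase, and the leukemia cells were sought here by pro-B markers. The study engrafted female mice aged 6 to 8 weeks, red blood cells were lysed and dead cells were removed before loading, and the number of mice behind each library was not given in the sources used here. Each state has 1 library, so there was no replicate check and no test between states was possible. Every interval is a 95% interval that covers counting error only.

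The libraries held 5386, 8536 and 9337 barcodes (naive, D11, D14) and 30362408 to 65861863 UMIs, the counted molecules. Barcodes under 200 genes or over 10% mitochondrial UMIs were left out, and 3811, 4567 and 4414 cells remained, with a median of 6031 to 6781 UMIs. Hemoglobin genes took 11.2%, 55.9% and 22.5% of the UMIs. Pairs of libraries shared 12 to 18 barcodes. Cells were put into a class by counting marker genes, none of them an S100 gene, so each class is only "like" the cell type whose name it carries. A level is the summed UMIs of a gene in a class and library scaled to CPM by all UMIs of that class and library. A member was called between 2 such sums when it was at least 1.5-fold apart, the interval of the ratio excluded no difference, and the mean level was at least 20 CPM. The D11 and D14 ratios share the naive library as denominator and are not independent of each other.

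All 6 genes lie on mouse chromosome 3 (GRCm38) inside 2.96 Mb. S100a4 (ENSMUSG00000001020) spans 90603771 to 90606045 on the forward strand, and S100a6 (ENSMUSG00000001025) follows at 90612882 to 90624181. S100a8 (ENSMUSG00000056054) spans 90668978 to 90670035 on the forward strand and S100a9 (ENSMUSG00000056071) spans 90692632 to 90695721 on the reverse strand, with 22.6 kb between them. S100a11 (ENSMUSG00000027907, 93520488 to 93526287) and S100a10 (ENSMUSG00000041959, 93555080 to 93564643) sit together on the forward strand at the far end. S100a4 overlaps the annotated gene Gm42674 on the same strand over 2115 bases, and Gm42674 is not among the features counted.

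The sequences just upstream of S100a8 and S100a9 are shown because these genes followed each other most closely over the cell classes. They are RefSeq bases (GRCm38.p6) that end where the annotated gene begins, written 5′ to 3′ on the gene's own strand, at chr3:90668821-90668977 (+) and chr3:90695722-90695971 (-). Capitals mark matches, on either strand, to TTNNGNAA, the letters of a C/EBP-type site. C/EBP factors are transcription factors of granulocytes and monocytes.
S100a8: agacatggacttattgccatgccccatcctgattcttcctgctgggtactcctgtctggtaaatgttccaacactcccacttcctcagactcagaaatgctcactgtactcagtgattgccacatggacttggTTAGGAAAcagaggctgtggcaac
S100a9: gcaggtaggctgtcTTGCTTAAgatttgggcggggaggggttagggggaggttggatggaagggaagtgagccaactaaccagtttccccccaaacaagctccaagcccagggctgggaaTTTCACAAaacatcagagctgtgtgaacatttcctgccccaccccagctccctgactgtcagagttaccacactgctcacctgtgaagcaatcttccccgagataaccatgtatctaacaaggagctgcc
S100a8 held 1 such match and S100a9 held 2. At least 1 match was present in 36.9% of the 27025 upstream windows of 250 bases in the same table, so these letters are common. S100a11 held 2 matches to TGANTCA, the letters of an AP-1 site, which 6.87% of windows held. TATAAA was found upstream of S100a4 and in 12.97% of windows, and S100a6 held none of the 3 motifs. The window of S100a8 also held TATAAA, past the printed bases and inside the gene as annotated. The table named 5 of the 6 genes, without S100a10.

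**Figure D1:**
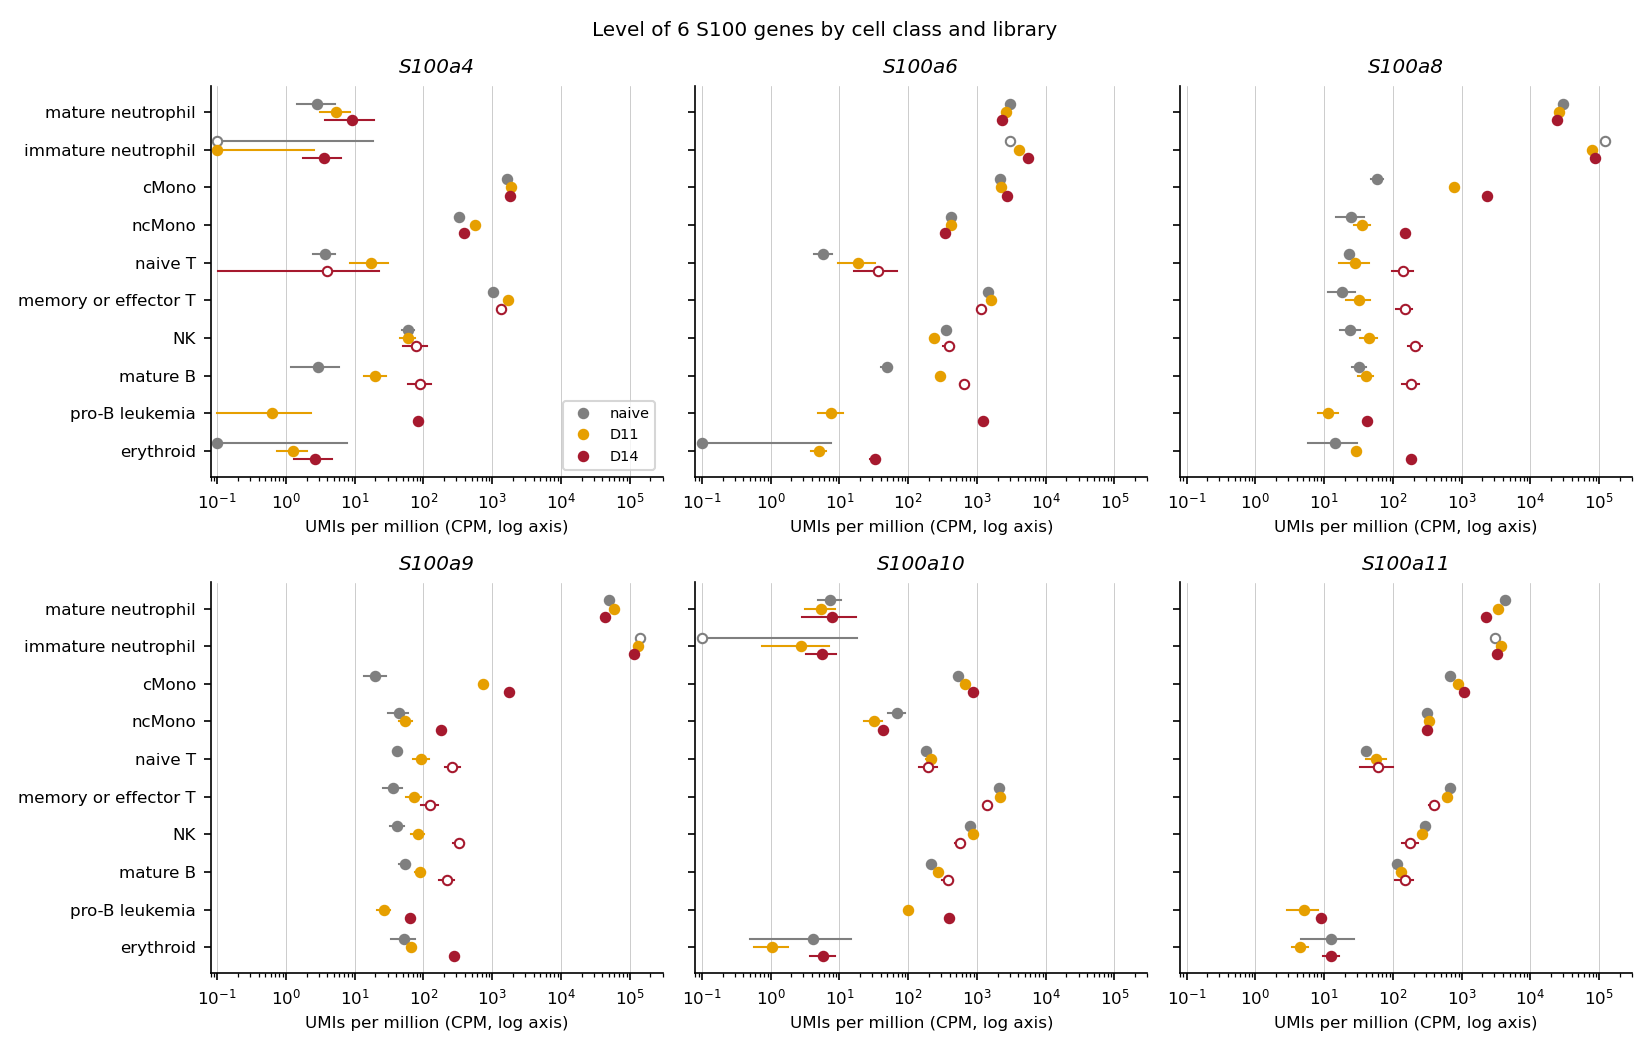
Level of each of the 6 S100 genes (CPM, log axis) in each cell class of the naive, D11 and D14 libraries, 1 point per library with its 95% Poisson interval. Open circles are classes with fewer than 50 cells, and a level of 0 is drawn at the left edge. S100a8 and S100a9 reach at least 24466 CPM in the neutrophil classes and stay under 400 CPM in the lymphoid classes, S100a10 is under 10 CPM in neutrophils, and S100a6 in pro-B cells stands at 7.64 CPM at D11 and 1245 CPM at D14.

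The 6 genes fell into 3 patterns over the classes. S100a8 and S100a9 were neutrophil genes, with every other class far below. S100a4 and S100a10 were near 0 in neutrophils and high in cMonos and in memory or effector T cells. S100a6 and S100a11 were high in neutrophils and also present in cMonos and in memory or effector T cells. Among the classes outside neutrophils, S100a4 was highest in cMonos (classical monocytes), then in memory or effector T cells, then in ncMonos (non-classical monocytes) in each library, with no overlap of intervals. S100a10 was highest in memory or effector T cells in each library. It was followed by NK cells, then cMonos, in the naive and D11 libraries and by cMonos, then NK cells, at D14.

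S100a8 stood at 29682, 26107 and 24466 CPM in mature neutrophils of the naive, D11 and D14 libraries (1112, 1013 and 303 cells). S100a9 stood at 49924, 58391 and 43131 CPM in the same cells. Together the pair made up 9.23%, 12.6% and 16.1% of all UMIs of the neutrophils of each library, against 0.00635%, 0.0120% and 0.0404% in naive T cells.

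In neutrophils taken as a whole the calprotectin genes were higher at D14, and the makeup of the neutrophils moved with them. Neutrophils were split by secondary granule genes (Ltf, Camp, Ngp and others), which are made in the bone marrow stages and fade as the cell matures. Immature cells, with at least 4 of these genes, were 1.76%, 12.9% and 36.4% of neutrophils in naive, D11 and D14, and mature cells, with at most 1, were 84.9%, 63.0% and 24.1%. S100a8 stood at 78650 CPM in immature and 26107 CPM in mature neutrophils at D11, and at 85715 and 24466 CPM at D14. The ratio was log2 1.59 and 1.81. S100a9 stood at 129851 CPM in immature and 58391 CPM in mature neutrophils at D11 (log2 1.15), and at 114190 and 43131 CPM at D14 (log2 1.40). S100a6 was also higher in the immature cells, by log2 0.61 and 1.28. These were 3 of the 6 genes at each day, while 12.9% (D11) and 14.4% (D14) of all genes were called higher in immature neutrophils and the median log2 of all genes was -0.29 and -0.22. The 23 naive immature cells, too few for a ratio, held S100a8 at 121796 CPM and S100a9 at 140225 CPM, above the immature cells of D11 and D14.

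**Figure D2:**
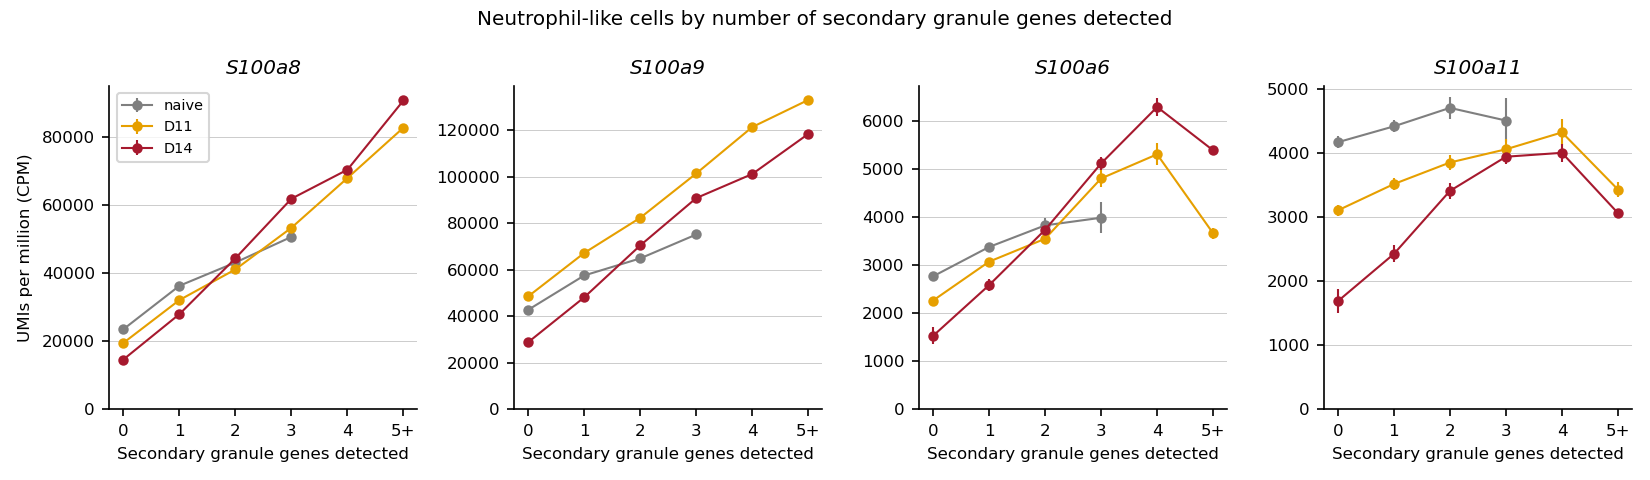
Level of S100a8, S100a9, S100a6 and S100a11 (CPM, with 95% Poisson intervals) in neutrophils grouped by the number of secondary granule genes detected in the cell, 1 line per library. At D14 S100a8 goes from 14561 CPM in cells with none of the genes to 90695 CPM in cells with 5 or more, while S100a11 stays between 1688 and 4009 CPM.

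A finer split gave a graded series for both calprotectin genes. At D14, S100a8 went from 14561 CPM in neutrophils with no secondary granule gene to 90695 CPM in those with 5 or more, and at D11 from 19438 to 82707 CPM. S100a9 went from 28783 to 118411 CPM at D14 and from 48498 to 133047 CPM at D11. Within immature neutrophils, none of the 6 was called between D14 and D11, where 6.11% of all genes were higher and 3.73% lower. S100a6 peaked at 6288 CPM in D14 cells with 4 of the genes and stood at 1524 CPM in those with none. Depth moved with this split, from a median of 1537 UMIs at the low end to 7991 at the high end at D14, and its part in the gradient was not tested.

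Over all neutrophils, D14 over naive was log2 0.90 [0.89 to 0.91] for S100a8, 0.74 for S100a9 and 0.60 for S100a6. These were 3 of the 6 genes called higher, where 11.8% of all genes were called higher and the median of all genes was -0.27. With the 3 maturity classes weighted as in the naive library, the fold of S100a8 at D14 went from 1.87 to 0.887, that of S100a9 from 1.67 to 0.929 and that of S100a6 from 1.51 to 0.880. At D11 the weighted fold was 0.874 for S100a8 and 1.18 for S100a9. The naive immature class behind this weighting held only 23 cells.

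S100a11 was the member called lower within mature neutrophils. It stood at 4295, 3326 and 2237 CPM in naive, D11 and D14, and D14 was 1.92-fold below naive (log2 -0.94 [-1.01 to -0.87]). It was 1 of 6 genes called there, where 18% of all genes were called lower and 9.4% higher at D14, and the median of all genes was -0.14. At D11 none of the 6 was called, with 6.11% of all genes lower and 2.92% higher. S100a6 stood at 3061, 2688 and 2308 CPM in the same cells, short of 1.5-fold at both days. Averaged as CPM per cell instead of summed, S100a6 (log2 -0.72) and S100a8 (log2 -0.61) were called lower at D14 as well. S100a4 and S100a10 stayed under 10 CPM in mature neutrophils of every library.

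In cMonos, the inflammatory monocytes that carry Ccr2 and Ly6c2, S100a8 and S100a9 were far higher with leukemia. S100a8 stood at 59.5, 775 and 2331 CPM (naive, D11, D14) and S100a9 at 20.03, 735 and 1746 CPM, from 129, 207 and 69 cells. S100a8 was thus log2 3.70 [3.41 to 4.02] higher at D11 and 5.29 [5.0 to 5.60] at D14. S100a9 was log2 5.20 [4.69 to 5.75] and 6.45 [5.94 to 7.0] higher. These were 2 of 6 members called higher at D11, where 4.17% of all genes were higher and 4.6% lower, and S100a10 and S100a11 joined them at D14 (4 of 6, where 11.1% of all genes were higher and 9.31% lower).

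S100a10 stood at 539, 674 and 887 CPM in cMonos, which at D14 was log2 0.72 [0.59 to 0.85] above naive. S100a11 stood at 666, 889 and 1091 CPM, at D14 log2 0.71 [0.60 to 0.83] above naive. These 2 calls at D14, like those of S100a8 and S100a9, rest on 69 cells. With a neutrophil share estimated from 4 genes subtracted, S100a11 stood at log2 0.52 and was no longer called. S100a4 (1625, 1900 and 1829 CPM) and S100a6 (2184, 2239 and 2762 CPM) were abundant in cMonos of every library and were not called.

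The S100a8 and S100a9 of cMonos sat mainly in a few cells. At D11, the 21 cells with the most S100a8 held 91.0% of its UMIs in cMonos, and for S100a9 the share was 94.8%. At D14, the top 7 cells held 54.2% and 71.0%, and the median cell held 6 and 3 UMIs. Taken by the sum of both genes, the top 7 cells at D14 held S100a8 at 10054 CPM and S100a9 at 9647 CPM, and the other cells held 1227 and 616.5 CPM. At D11 the other cells held 80.7 and 50.4 CPM, against 22.6 and 16.3 CPM in the other naive cells.

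Markers of neutrophils were looked for in these cells, since cells of 2 types can share a droplet. Cells that also passed the neutrophil gate, with 4 or more markers, were already left out, so low values of Retnlg, Mmp9 and Ltf are in part fixed by the gate. The median cell of the top 7 at D14 held 3 neutrophil markers, against 2 in the other cells. In the top 7 cells at D14, Retnlg, Stfa2l1, Mmp9 and Ltf were at 0, while they stood at 15074, 1001, 1314 and 2286 CPM in neutrophils of that library, and Ccr2 stood at 839 CPM. At D11 the top 21 cells held Retnlg at 2.73 CPM, against 7404 CPM in neutrophils, and Stfa2l1 at 0. Other neutrophil genes moved with S100a8: Lcn2, an iron-trapping protein of granules, stood at 553.5 CPM and Wfdc21 at 1004 CPM in the top 7 cells at D14. In cMonos without a UMI of Lcn2, Wfdc21, Stfa2l1 or Lrg1 (126, 169 and 21 cells), S100a8 stood at 54.2, 108 and 146 CPM and S100a9 at 20.01, 55.2 and 173 CPM. The D14 calls of S100a8, S100a9 and S100a11 and the D11 call of S100a9 were lost when a neutrophil share estimated from these 4 genes, a set picked after seeing the data, was subtracted. With a share from 10 genes the D11 calls of both S100a8 and S100a9 were lost, and so were both at D14. That share was 14.8% (D11) and 12.4% (D14) of the neutrophil level, above the percent at which either gene stood in cMonos. This second loss was thus fixed in advance and says nothing about the source. The share from 4 genes was likewise above the percent at which S100a8 and S100a9 stood in cMonos at D14, and S100a9 at D11. Those losses were fixed in advance too and say nothing about the source. The 10 include genes that monocytes hold themselves, such as Ifitm6, at 399.6% of its neutrophil level in naive cMonos. Cells with a UMI of any of the 4 were 2.33%, 18.4% and 69.6% of cMonos, and held S100a8 at 3336 CPM at D11 and 3059 CPM at D14. Of the cells that passed the cMono gate, 37.1%, 34.7% and 65.8% also passed another gate and were left out of the class.

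The share of cMonos with S100a8 was also compared at equal depth. With each cell thinned to 1000 UMIs it was 6.2%, 14.98% and 44.9% (31 of 69 cells at D14), and without thinning it was 33.3%, 51.7% and 95.7%. In T cells, which should lack the gene, the thinned share was 3.0%, 4.5% and 16.4%. The share in cMonos was above that in T cells in every library, and both were highest at D14. In the naive library, with 129 cMonos, the gap was smallest, and whether it lies beyond counting error was not tested.

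ncMonos, the patrolling monocytes marked by Ace and Treml4, held less of nearly every member than cMonos. cMonos over ncMonos was log2 2.31, 1.74 and 2.26 for S100a4 in the 3 libraries, 2.36, 2.43 and 3.0 for S100a6, 2.99, 4.43 and 4.38 for S100a10, and 1.08, 1.42 and 1.80 for S100a11. In the naive library, 5 of 6 members were called higher in cMonos and S100a9 was called lower, at log2 -1.13, where 16.4% of all genes were called higher and 24.3% lower. At D11 and D14 all 6 were called higher in cMonos, where 16.8% and 19.3% of all genes were.

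Within ncMonos, S100a4 stood at 327, 568 and 382 CPM, and D11 was log2 0.80 [0.60 to 1.0] above naive. S100a10 stood at 68.1, 31.3 and 42.7 CPM. It was lower than naive on both days, at log2 -1.12 [-1.71 to -0.53] at D11 and -0.67 [-1.10 to -0.23] at D14. At D11 these were 1 of 6 members higher, where 7.26% of all genes were, and 1 of 6 lower, where 8.86% were. S100a6 (425, 414 and 346 CPM) and S100a11 (315, 332 and 313 CPM) were not called. S100a8 stood at 24.3, 36.0 and 151 CPM and S100a9 at 43.8, 54.7 and 180 CPM, both called higher at D14 (8.43% of all genes higher, 9.12% lower). The D14 level of S100a8 in ncMonos stood beside 148 CPM in T cells of the same library. With 5 markers required for a class in place of 4, S100a8 and S100a9 in ncMonos were no longer called at D14 and S100a4 was no longer called at D11. This raised every gate at once, so fewer cells were left out for passing several gates. The D14 ncMonos rose from 588 to 615 cells, so the class did not become a stricter subset. The same 3 calls were lost when cells of several gates were kept where 1 class led by 3 markers. The S100a10 call at D14 was lost under that rule too, with TMM scaling, with the mean of CPM per cell, and without the 5% of cells with the most UMIs. At D11 the direction of S100a8 and S100a9 in ncMonos also depended on the rule. Both were called lower with 5 markers and with cells of several gates kept, and S100a8 was called higher with the mean of CPM per cell.

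Outside neutrophils and cMonos, S100a8 and S100a9 were low in every class and highest in the D14 library in each. In the naive library S100a8 stood between 14.4 and 32.4 CPM in ncMonos, naive T, memory or effector T, NK, mature B and erythroid cells. In the D14 library it stood between 140 and 210 CPM in the same classes. At D11 it stood between 28.0 and 45.1 CPM. S100a9 stood between 36.0 and 53.5 CPM in those classes of the naive library, between 54.7 and 91.9 CPM at D11 and between 124 and 324 CPM at D14. Pro-B cells stood lower, at 11.5 and 42.5 CPM of S100a8 at D11 and D14, with a median of 31241 and 31870.5 UMIs per cell against 7520 in T cells at D14. Ordered by S100a8 within a library, the intervals of neighbours overlapped among the classes other than pro-B cells. Classes farther apart did not all overlap, as with ncMonos (141 to 162 CPM) and erythroid cells (173 to 199 CPM) at D14. For S100a9 at D14, the neighbours memory or effector T cells and ncMonos did not overlap.

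**Figure D3:**
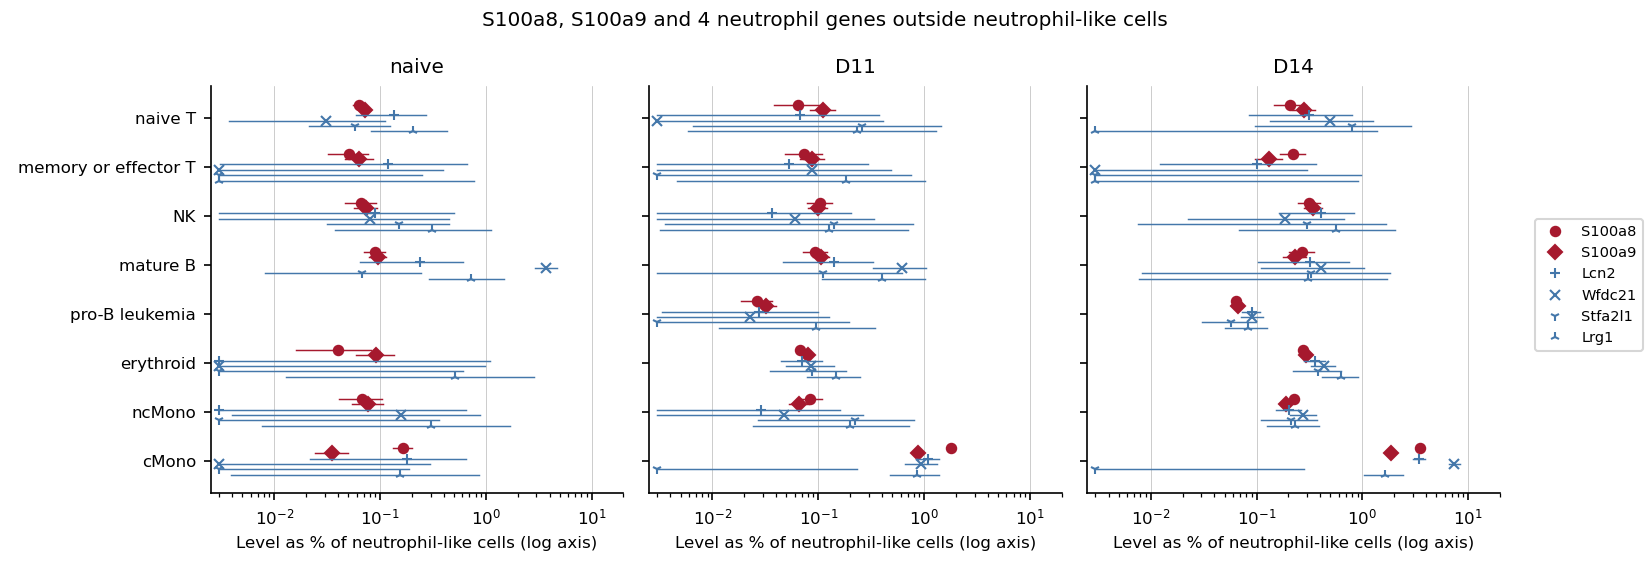
Level of S100a8, S100a9 and 4 other neutrophil genes (Lcn2, Wfdc21, Stfa2l1, Lrg1) in each class outside neutrophils, as a percent of their level in neutrophils of the same library (log axis, 1 panel per library, with 95% counting intervals; values of 0 are drawn at the left edge). In T classes all points lie under 1%, and in cMonos S100a8 reaches 1.79% at D11 and 3.48% at D14.

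In droplet data, free RNA from 1 source is expected to keep its genes in the same ratio in each class. In T cells, S100a8 stood at 0.0648%, 0.0686% and 0.221% of its neutrophil level (naive, D11, D14) and S100a9 at 0.0684%, 0.0980% and 0.192%. The neutrophil genes Lcn2, Wfdc21, Stfa2l1 and Lrg1 stood between 0.0451% and 0.174% there in the naive library, between 0.0347% and 0.365% at D11, and between 0.103% and 0.340% at D14. S100a8 and S100a9 in T cells thus lay within the range of these 4 genes in each library. The share itself differed between classes. At D14 S100a8 stood at 0.313% in NK cells, 0.277% in erythroid cells and 0.0634% in pro-B cells. The 4 genes stood between 0.185% and 0.558%, between 0.355% and 0.626%, and between 0.0574% and 0.0912% in the same classes. In the 39 memory or effector T cells of D14, S100a8 (0.220%) and S100a9 (0.132%) were above all 4 genes, of which only Lcn2 had a UMI. In cMonos at D14 S100a8 stood at 3.48%, S100a9 at 1.86%, Lcn2 at 3.42%, Lrg1 at 1.63% and Stfa2l1 at 0. Wfdc21 stood at a larger percent than S100a8. It was at 1004 CPM in the top 7 cells and 132 CPM in the other cells, against 3246 CPM in neutrophils. In cMonos S100a8 and S100a9 thus stood at a higher percent than in T cells. They lay inside the range of the 4 genes, but from Stfa2l1 at 0 to Wfdc21 that range was too wide to place their source. The 4 genes were picked after seeing the data, and the source was not tested.

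The UMI ratio of S100a8 to S100a9 in a class was also set beside that of neutrophils. It was 0.637, 0.522 and 0.713 in neutrophils and 0.603, 0.365 and 0.822 in T cells. In cMonos it was 2.97, 1.05 and 1.34, above neutrophils in every library. Barcodes with fewer than 200 genes, which were left out of the classes, held S100a8 at 53.6, 37.4 and 403 CPM and S100a9 at 104, 82.3 and 571 CPM, so they too were highest at D14. The calls of S100a8 and S100a9 in NK, mature B, T and erythroid cells are set aside and not read as expression there. Whether they are background was not tested. Their levels lie near or below those of these barcodes in the same library. At D11 S100a8 in NK cells (45.1 CPM) lay above them. So did S100a9 in naive T, NK and mature B cells (91.9, 82.5 and 89.0 CPM), but not in memory or effector T cells (72.6 CPM). The 3407 such barcodes of D11 held 19683473 UMIs, so their CPM also depends on the other RNA in them. From naive to D11, however, both genes fell in these barcodes, while the D11 calls are rises, and the cause was not tested. The calls set aside are S100a8 in NK cells and S100a9 in naive T, memory or effector T, NK and mature B cells at D11. At D14 they are both genes in erythroid cells.

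Among T cells the other 4 members were higher in memory or effector cells than in naive cells. S100a4 stood at 3.69 CPM in naive T cells and 1040 CPM in memory or effector T cells of the naive library, a ratio of log2 8.14. S100a6 stood at 5.83 and 1459 CPM (log2 7.97), S100a10 at 180 and 2063 CPM (log2 3.52) and S100a11 at 41.2 and 672 CPM (log2 4.03). At D11 the ratios were log2 6.62, 6.40, 3.32 and 3.42. These 4 of 6 were called higher in memory or effector T cells in both libraries, where 22.2% (naive) and 22.4% (D11) of all genes were.

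Pooled T cells held more of these genes with leukemia, and fewer of the T cells were naive. S100a4 in all T cells stood at 161, 1039 and 805 CPM, and S100a6 at 206, 941 and 743 CPM. S100a4, S100a6, S100a10 and S100a11 (4 of 6) were called higher at D11, where 8.79% of all genes were higher and 4.1% lower, and at D14 (12.1% higher and 6.06% lower). S100a9 at both days and S100a8 at D14 were called too, at the level set aside above. With them all 6 members were called at D14, and all but S100a8 at D11. Naive T cells were 74.8%, 33.8% and 30.9% of T cells, and memory or effector T cells 8.37%, 33.1% and 35.5%. Within memory or effector T cells, S100a4 stood at 1040, 1688 and 1343 CPM (103, 89 and 39 cells), and D11 was log2 0.70 [0.59 to 0.81] above naive. This made S100a4 and the set-aside S100a9 the 2 of 6 members called higher there at D11, where 6.26% of all genes were higher and 4.03% lower. S100a6 (1459, 1582 and 1140 CPM), S100a10 (2063, 2129 and 1416 CPM) and S100a11 (672, 617 and 395 CPM) were not called at D11, and D14 had too few cells for a ratio. Within naive T cells S100a9 alone was called (3.63% of all genes higher and 4.31% lower).

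CD4 T cells held more S100a4 than CD8 T cells, by log2 1.17 in the naive library and 1.30 at D11. With S100a6 this was 2 of 6 members called higher in CD4 T cells of the naive library, where 5% of all genes were. At D11 it was 4 of 6, with S100a10 and S100a11, where 5.29% of all genes were. Whether the CD4 and CD8 cells differed in their share of memory cells was not tested.

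NK cells held S100a10 at 804, 863 and 561 CPM and S100a6 at 357, 236 and 390 CPM (195, 189 and 48 cells). S100a6 was log2 -0.60 [-0.81 to -0.39] at D11, which was 1 of 6 members lower, where 3.8% of all genes were lower and 3.03% higher. S100a4 was low in NK cells, at 60.3, 58.7 and 78.0 CPM.

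Mature B cells held little S100a6 in the naive library and more at D11. It stood at 49.4, 291 and 650 CPM, from UMIs in 15 of 373, 30 of 235 and 16 of 38 cells. D11 was log2 2.56 [2.26 to 2.86] above naive, and 3.88 without the 5% of cells with the most UMIs. S100a6 and the set-aside S100a9 were the 2 of 6 members called higher in mature B cells at D11, where 3.9% of all genes were higher and 4.33% lower. S100a10 (213, 267 and 376 CPM) and S100a11 (115, 132 and 149 CPM) were present in these cells at every stage and were not called.

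The cells with pro-B markers (Vpreb1, Igll1 and others), which are the leukemia-like class, gave the largest ratio between libraries of any member. They were 3, 95 and 684 cells in naive, D11 and D14, so only D14 and D11 could be compared. S100a6 stood at 7.64 CPM at D11 and 1245 CPM at D14, a ratio of log2 7.35 [6.77 to 7.99]. S100a10 stood at 99.9 and 389 CPM, log2 1.96 [1.80 to 2.13]. S100a4 stood at 0.637 CPM at D11, which is 2 UMIs, and at 83.4 CPM at D14, a ratio of log2 7.03 with the wide interval of 5.18 to 10.08. S100a8 (log2 1.89) and S100a9 (log2 1.24) were also called, at 11.5 and 42.5 CPM and 26.7 and 63.3 CPM, below the level of T cells at D14. That is 5 of 6 members, where 7.04% of all genes were higher and 2.67% lower. Of these, S100a4, S100a6 and S100a8 passed the minimum level through their D14 values, so the count is given as a description only, and S100a8 and S100a9 lie within the range of the neutrophil genes above. S100a11 stood at 5.09 and 9.02 CPM, under the minimum level.

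At D11 these cells were poor in S100 transcripts beside the mature B cells of the same library. S100a6 was log2 -5.25 lower in pro-B than in mature B cells, S100a11 -4.69 and S100a10 -1.42. These were 3 of the members called lower, where 28.5% of all genes were. S100a6 and S100a11 passed the minimum level through their mature B values. S100a8 and S100a9 were called lower too, at levels set aside above, so only S100a4 was not called.

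**Figure D4:**
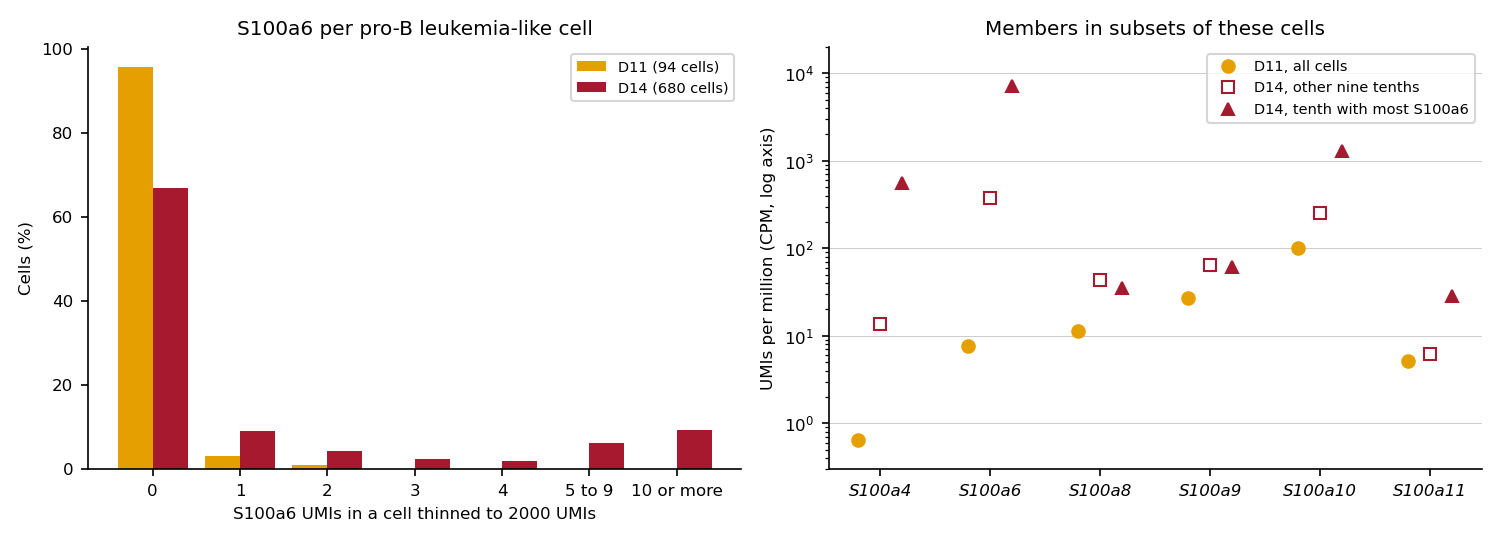
Left, percent of pro-B cells by number of S100a6 UMIs after thinning each cell to 2000 UMIs, at D11 (94 cells) and D14 (680 cells). Right, level of each member (CPM, log axis) in all D11 cells, in the 69 D14 cells with the most S100a6 and in the other D14 cells. At D14 67.1% of cells have no S100a6 UMI and 9.26% have 10 or more, and the 69 cells also hold more S100a4 and S100a10 than the other cells.

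The S100a6 of D14 pro-B cells was uneven from cell to cell. After thinning to 2000 UMIs, 456 of 680 cells (67.1%) held none and 63 cells (9.26%) held 10 or more. At D11 90 of 94 cells held none and no cell held more than 2. Thinned to 1000 UMIs, the share with a UMI was 3.2% (3 of 95 cells) at D11 and 27.9% (191 of 684 cells) at D14, and without thinning 13.7% and 61.4%. In naive T cells, which hold little S100a6, the thinned share was 0.9%, 2.2% and 0% (upper limit 10.3% from 34 cells), and in erythroid cells 0% (upper limit 6.98% from 51 cells), 0.5% and 4.6%. The 69 cells with the most S100a6 held 73.3% of its UMIs.

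Those 69 cells were set beside the other 615 cells of the class at D14, as a description only, since S100a6 chose them. S100a6 stood at 7189 and 381 CPM. S100a4 stood at 562 and 13.7 CPM, and S100a10 at 1305 and 256 CPM. The B-lineage genes Cd79a (982 and 709 CPM) and Cd79b (413 and 196 CPM) were present in both sets, and the cells held a median of 6 pro-B markers in both. Ebf1 stood at 2371 and 3680 CPM, Vpreb1 at 592 and 836 CPM, and Dntt, the enzyme that adds bases in gene rearrangement, at 7.7 and 112 CPM. Of the markers of other classes looked at, the myeloid gene Lyz2 stood at 8.0 and 7.8 CPM, the neutrophil gene Retnlg at 11.1 and 12.5 CPM, and Ccr2 and the T cell gene Cd3e at 0 in the S100a6-high cells. With the 5% of cells richest in UMIs left out, the D14 to D11 ratio of S100a6 was log2 7.32. It was 7.16 over the 39 and 118 cells that held no neutrophil marker and fewer than 2 secondary granule, cMono, ncMono, T or NK markers. Markers of mature B cells and of the remaining classes were not counted in that filter.

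In the D14 pro-B cells, S100a6 was lower in cycling than in non-cycling cells. Cycling cells held at least 3 of 6 proliferation genes (457 cells) and non-cycling cells none (82 cells). The 6 genes were chosen after the values were seen. S100a6 stood at 891 CPM in the cycling and 2560 CPM in the non-cycling cells, log2 -1.52, with S100a4 at -1.87 and S100a10 at -0.99. These were 3 of 6 members lower in cycling cells, where 8.56% of all genes were. In both sets S100a6 sat mainly in a few cells. The top 46 cycling cells held 79.1% of its UMIs there, and the top 9 non-cycling cells 67.7%. Median depth was 35783 UMIs in cycling and 23906 in non-cycling cells, and its part was not tested. Among cycling cells alone, S100a6 was log2 6.91 higher at D14 than at D11, and 5 of 6 members were called higher, where 5.16% of all genes were. Here too S100a4, S100a6 and S100a8 passed the minimum level through their D14 values, so the count is a description only. S100a8 and S100a9 stood at 38.9 and 58.0 CPM in cycling cells at D14, below the level of T cells.

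Erythroid cells held little of the 4 members other than S100a8 and S100a9. S100a4 was at 0, 1.28 and 2.65 CPM, S100a10 at 4.12, 1.05 and 5.78 CPM and S100a11 at 12.4, 4.52 and 12.8 CPM. S100a6 was at 0, 4.97 and 33.5 CPM. Barcodes with fewer than 200 genes held it at 14.0, 5.94 and 76.4 CPM. Whether S100a6 in erythroid cells is background was not tested. S100a8 and S100a9 made 2 of 6 members called higher at D14, where 16.4% of all genes were higher and 13.5% lower, and none was called at D11 (16.6% and 9.62%).

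Over all classes, the 6 members were called higher than naive in 10 of 48 class and gene pairs at D11 and in 8 of 24 at D14, and lower in 2 and 2. Over all genes, 2.92% to 16.6% were called higher in these classes at D11 and 8.43% to 16.4% at D14. Lower calls took 3.8% to 9.62% of all genes at D11 and 9.12% to 18% at D14, so the lower calls do not set the members apart. Of the 18 higher calls, 8 were S100a9 and 5 were S100a8, and 7 of these 13 were set aside above. The rest were both genes in cMonos at both days and in ncMonos at D14. In D14 ncMonos S100a8 (151 CPM) and S100a9 (180 CPM) stood beside 148 and 180 CPM in T cells. These ncMono calls were lost with 5 markers per class, with cells of several gates kept, and with either subtraction. The loss with the 10-gene subtraction was fixed in advance, since the share taken off exceeded the level of both genes there. Apart from S100a8 and S100a9, the higher calls at D11 were S100a4 in ncMonos and in memory or effector T cells and S100a6 in mature B cells. At D14 they were S100a10 and S100a11 in cMonos.

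Partners, receptors and regulators of the S100 proteins were followed in lists. In cMonos at D14, where 11.1% of all genes were higher and 9.31% lower, 2 of 9 binding partners were higher, Anxa1 (461 to 825 CPM) and Anxa11 (21.9 to 44.9 CPM), and none was lower, with a list median of log2 0.15 beside 0.03 over all genes. Anxa1 is an annexin that S100a11 binds, and Anxa11 one that S100a6 binds. In ncMonos at D14, Anxa1 (140 to 222 CPM) and Anxa5 (114 to 177 CPM) were higher, and Anxa2, the partner of S100a10, was lower (232 to 149 CPM). At D11, when S100a10 was at its lowest there, Anxa2 stood at 215 CPM and was not called. In pro-B cells, where 7.04% of all genes were higher, 3 of 7 partners were higher at D14 than at D11, Ahnak (111 to 521 CPM), Anxa5 (22.3 to 53.2 CPM) and Anxa6 (34.7 to 61.0 CPM), with a list median of log2 0.45 beside 0.01. Anxa2 was not among the 7, since it stood at 0.318 and 23.8 CPM, under the minimum mean level. Ahnak is a giant scaffold protein that the S100a10 and annexin A2 complex binds. It was also higher in mature neutrophils at D14 (30.4 to 331 CPM).

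Of the receptors of released S100 proteins, 8 of 10 passed the minimum level in ncMonos at D14, and 1 was higher and 4 lower, where 8.43% of all genes were higher and 9.12% lower. Cd14, the co-receptor of Tlr4, went from 13.4 to 144 CPM. Tlr4 itself went from 57.1 to 28.8 CPM, Cd36, a scavenger receptor, from 1008 to 479 CPM, Emb from 345 to 187 CPM and Alcam from 887 to 545 CPM, and the list median was log2 -0.54 beside -0.01 over all genes. In cMonos at D14 1 of 8 was higher, Cd33 (28.2 to 69.2 CPM), and 2 were lower, Alcam (528 to 265 CPM) and Ly96 (30.1 to 15.98 CPM). In mature neutrophils at D14 Cd14 was higher (64.4 to 289 CPM) and Emb, a surface protein of the basigin family, was lower (993 to 488 CPM).

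Among the plasminogen genes, Serpinb2, an inhibitor of plasminogen activators, was lower in both monocyte classes at D14 (99.5 to 55.5 CPM in cMonos, 175 to 14.7 CPM in ncMonos), and Plgrkt, a plasminogen receptor, was higher in cMonos (24.4 to 63.1 CPM). Each of these lists had 3 genes that passed. Of 5 C/EBP and related genes that passed in cMonos at D14, Stat3 was higher (179 to 289 CPM) and Cebpa was lower (136 to 56.3 CPM), and in ncMonos none was called. In mature neutrophils Cebpb was higher at both days, at 740, 1347 and 1264 CPM. Of 11 other S100 genes only S100a1 and S100a13 passed in cMonos at D14, and both were higher (27.5 to 57.1 and 113 to 188 CPM). S100a13 was also higher in pro-B cells at D14 than at D11 (98.7 to 160 CPM).

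The genes most like each member were found over 24 sums of class and library, by Pearson correlation of log2 CPM over 4600 genes. These sums share libraries and depth, so the values are a description. S100a8 was most like Lcn2 (0.98), Lrg1 (0.97) and Crispld2 (0.97), and stood at 0.99 with S100a9. S100a9 was most like Lrg1, Scrg1 and Lcn2 (0.98 each). S100a11 was most like the adhesion receptor Cd44 (0.96), Dhrs7 (0.95) and Zyx (0.94), and S100a10 most like Mndal (0.94), Ifi203 (0.93) and Tmsb10 (0.93). S100a6 was most like Anxa2 (0.90), Prr13 (0.89) and Casp4 (0.89). S100a4 was most like Mcub (0.89), Capn2 (0.86) and Ahr (0.86).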

How the data were processed

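Single-cell RNA-seq libraries (10x 3′ v3) were made by the authors from 3 PB samples and deposited as matrices of UMI counts, raw per gene and cell. The submitters' notes name Cell Ranger 7.1.0 and mm10, while the file headers name 5.0.1. Which barcodes were kept as cells was decided by the authors.

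Counts were summed by class and library with Python 3.11.15, numpy 2.4.6, scipy 1.17.1 and pandas 2.3.3. Barcodes with under 200 genes or over 10% mitochondrial UMIs were left out. A class needed 4 of its markers (3 for platelets, progenitors, dendritic cells and basophils), and cells that passed several gates (181, 274 and 302) or none (209, 301 and 637) were left out. No doublet caller was run. Of 117 markers, 1 was not found. Ratios needed 50 cells in both classes and levels 20. Intervals are exact Poisson, Clopper-Pearson or conditional binomial, and cover counting error only. In naive T cells at least 4 naive and fewer than 4 memory markers were required, and the reverse in memory or effector T cells. Genes named are the 6 members, the genes of the lists and the 3 most like each member among genes above 100 CPM (pseudocount 1). Of 32285 features, 32158 matched the GRCm38 annotation by identifier. The ratio method was tested on simulated data. TMM factors came from edgeR 4.0.16 (R 4.3.3). Alternatives in filters, gates, scaling and background subtraction were computed. The subtraction from 4 genes and the rule for cells of several gates were added after seeing the data. So were the 2 subsets of pro-B cells and cMonos, and the genes of the cell cycle split. The members, lists and thresholds were chosen with earlier results of these data known.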

Additional observations from a re-analysis of the deposited data

Results flagged for a closer look

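S100a6 went in opposite directions at D11 in a pair of lymphoid classes, log2 2.56 in mature B cells and -0.60 in NK cells. S100a10 did so at D14 in the monocytes, log2 0.72 in cMonos and -0.67 in ncMonos. S100a11 did so at D14 in myeloid cells, log2 0.71 in cMonos and -0.94 in mature neutrophils. With 1 library per state, none of these differences was tested.

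Barcodes with fewer than 200 genes, which no class used, held more of 4 members at D14 than in the naive library: S100a6 at 76.4 CPM, S100a8 at 403 CPM, S100a9 at 571 CPM and S100a10 at 10.3 CPM. In the naive library they held 14.0, 53.6, 104 and 4.46 CPM.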

How the results depend on the processing

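No paired analysis was possible because each state has 1 library, and no library could be left out. Of 624 ratios recomputed under 12 alternatives, 524 moved by less than their counting interval, 98 moved further and 2 called ratios changed sign. Ratios with a level brought to 0 were left out of this tally. It thus holds 33 ratios under the 10-gene subtraction and 39 under the 4-gene one, against 57 with TMM factors, and it misses changes of that kind. With 5 markers per class, 5 pairs were lower at D11 (2 as reported), 4 were higher at D14 (8 as reported) and S100a9 in mature B cells at D11 was log2 -0.00385. Leaving out the 5% of cells with the most UMIs, TMM factors, and keeping cells of several gates where 1 class led by 3 markers each gave 1 lower pair at D14 (2 as reported), and the last gave 4 lower pairs at D11. Subtracting a neutrophil share left 6 higher pairs at D11 and 2 at D14 with 10 tracer genes, and 5 and 1 with 4 genes. With 10 genes the losses of S100a8 and S100a9 were fixed in advance, since the share exceeded their level in those classes. In cMonos so were the 4-gene losses of both genes at D14 and of S100a9 at D11. With 4 genes S100a9 in memory or effector T cells at D11 was log2 -0.92. The mean of CPM per cell gave 15 higher pairs at D11 (10 as reported) and 3 lower pairs at D14. A minimum of 100 CPM left 10 list genes higher (18 as reported) and 6 lower (12 as reported). Thinned to 2000 UMIs, S100a8 was found in 60.9% of D14 cMonos and S100a6 in 33.1% of D14 pro-B cells. In the 21 D14 cMonos without the 4 tracer genes S100a8 stood at 146 CPM and S100a9 at 173 CPM. With 3 markers per class only 19 cMonos remained at D14, so their calls could not be made. The cause of these shifts was not tested. Low counts limit S100a4 and S100a11 in pro-B cells at D11, which rest on 2 and 16 of 3141697 UMIs. Few cells limit every class under 50 cells.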
